A study of Mus musculus with 16 samples.

Results

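The genes of NK and other cytotoxic lymphocytes were followed in iWAT, inguinal white fat, a depot under the skin that in mice also holds a lymph node. The members were a list of 10 genes, Nkg7, Gzma, Gzmb, Prf1, Klrd1, Klrk1, Ncr1, Eomes, Tbx21 and Ccl5, of 54752 genes in the table of raw counts. They were chosen by name and not by a measured value, but with earlier results of these data known. All 10 passed the filter on low counts, as did 19736 genes in all. RNA was sequenced from 16 iWAT libraries of C57BL/6 mice labelled female and aged 90 days, 4 for each of 4 genotypes. WT mice carried neither mutation, and Lepob/+ mice were heterozygous for the ob allele, which leaves a single working copy of the gene for the hormone leptin. SOD1G93A mice carried many copies of a mutant human SOD1 transgene, a model of amyotrophic lateral sclerosis (ALS). SOD1G93A-Lepob/+ mice, from Lepob/+ females crossed with SOD1G93A males, carried both. The comparisons asked whether the transgene, the ob allele or the pair moved the genes of killer lymphocytes in fat, and what was left of these genes in libraries with little lymph node RNA.

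Natural killer (NK) cells and cytotoxic T cells kill target cells by releasing granules that hold perforin, which opens the membrane, and granzymes, the proteases that enter through it. NK cells decide by the balance of inhibitory and activating receptors at their surface, while T cells carry an antigen receptor. Most of the genes below are used by both cells. Ncr1, the receptor NKp46, is largely restricted to NK cells and related innate lymphocytes, and Adgre1 and Mcpt4 are used below as markers of macrophages and mast cells.

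The libraries held 36.8 to 61.9 M counts (M for mega), and levels are given as CPM, counts per M counts of the library, after scaling by the TMM method, which corrects for differences in RNA composition. They fell into 2 sets by 7 genes that mark the stroma of a lymph node and its high endothelial venules, where lymphocytes leave the blood, and no member is among those genes. Of the 16 libraries, 6 were rich in them (mean log2 CPM over the list from 4.14 to 5.22) and 10 were poor (from -2.13 to -0.86). Glycam1, a product of high endothelial venules and itself in the list, had a median of 421 CPM in the rich libraries and 0 in the poor ones. Of the 7 genes, 5 had every rich library above every poor one, beside 11.2% of genes tested, and 2 overlapped. Rich libraries were WT replicates 1 and 2, Lepob/+ replicate 3 and SOD1G93A replicates 1, 2 and 4, and all 4 SOD1G93A-Lepob/+ libraries were poor. Cd3e, a subunit of the T cell receptor complex, moved with this split, at 65.5 CPM against 0.918 CPM. These sets were read from the data and are not groups of the study. Lepob/+ replicate 4 stood apart by skeletal muscle transcripts (Acta1 at 44647 CPM). WT replicate 3 came next (Acta1 at 1298 CPM), and the highest of the others was SOD1G93A replicate 4 at 92.0 CPM. The library labelled SOD1G93A-Lepob/+ replicate 3 went against its label of female, with 0 counts of Xist and 1756 counts of Y genes, where the other 15 libraries had 11895 to 28034 counts of Xist and 0 of the Y genes. The genotypes themselves were not checked against the counts.

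The promoters of members with different behaviour are shown first, because some members moved with the lymph node genes and others did not. Each window holds 250 bases before and 50 bases after the RefSeq start of the gene (GRCm38.p6), read along the strand of the gene. Capitals mark TCACAC, a core of the T-box site bound by the family of Eomes and Tbx21, and TGTGGT, a core of the site bound by Runx factors, searched on both strands. A match on the other strand stands in the window as GTGTGA or ACCACA. Nkg7 lies at chr7:43436888-43437187 on the plus strand and Prf1 at chr10:61297586-61297885 on the plus strand. The windows of the granzymes are chr13:113100932-113101231 for Gzma and chr14:56262285-56262584 for Gzmb, both on the minus strand.
Nkg7: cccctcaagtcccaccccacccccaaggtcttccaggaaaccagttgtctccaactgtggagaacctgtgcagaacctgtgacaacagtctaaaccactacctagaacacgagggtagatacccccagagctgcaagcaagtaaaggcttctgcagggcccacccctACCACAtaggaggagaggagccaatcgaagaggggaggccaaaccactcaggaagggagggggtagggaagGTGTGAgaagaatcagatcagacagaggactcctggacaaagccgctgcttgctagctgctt
Prf1: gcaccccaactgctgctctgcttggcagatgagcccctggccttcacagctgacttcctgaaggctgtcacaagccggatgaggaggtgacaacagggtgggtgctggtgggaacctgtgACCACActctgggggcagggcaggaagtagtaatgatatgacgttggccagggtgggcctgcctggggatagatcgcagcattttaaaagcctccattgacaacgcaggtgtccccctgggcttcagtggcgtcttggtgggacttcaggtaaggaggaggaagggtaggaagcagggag
Gzma: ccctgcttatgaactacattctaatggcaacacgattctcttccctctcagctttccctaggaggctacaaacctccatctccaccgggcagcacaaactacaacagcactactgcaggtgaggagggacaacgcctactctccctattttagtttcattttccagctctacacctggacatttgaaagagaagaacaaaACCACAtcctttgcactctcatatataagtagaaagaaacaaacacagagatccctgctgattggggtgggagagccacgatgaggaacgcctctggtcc
Gzmb: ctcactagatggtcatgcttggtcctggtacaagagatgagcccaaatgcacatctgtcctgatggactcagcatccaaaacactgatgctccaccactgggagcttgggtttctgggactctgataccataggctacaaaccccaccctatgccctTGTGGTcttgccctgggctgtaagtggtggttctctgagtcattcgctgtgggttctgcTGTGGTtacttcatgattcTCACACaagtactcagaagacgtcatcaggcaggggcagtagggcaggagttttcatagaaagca
A window was given for 8 of the 10 members, and Klrd1 and Ccl5 had no entry. TCACAC was found in 3 of the 8 (Nkg7, Gzmb and Ncr1), against 14.5% of 32851 mouse promoter windows of the same length. TGTGGT was found in 6 of the 8 (Nkg7, Gzma, Gzmb, Prf1, Klrk1 and Ncr1), against 16.8%. The 2 motifs do not separate the members that followed the lymph node from those that did not: Nkg7 and Gzmb held both, Prf1 and Gzma held TGTGGT alone, and Eomes and Tbx21 held neither. A match of letters is a description of the window and not a bound site.

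Ccl5, the chemokine RANTES that activated T and NK cells release to attract other leukocytes, had the widest range of the members. It was at 130.4, 106, 6.77 and 4.42 CPM in WT replicates 1 to 4, at 2.82, 2.98, 136 and 2.93 CPM in Lepob/+, at 114, 128, 3.49 and 118 CPM in SOD1G93A, and at 5.58, 4.17, 3.79 and 3.71 CPM in SOD1G93A-Lepob/+. The 6 lymph node rich libraries ran from 106 to 136 CPM and the 10 poor libraries from 2.82 to 6.77 CPM, whatever the genotype. In whole tissue, fewer cells of a type and less RNA per cell cannot be told apart. Ccl5 is on chromosome 11 (GRCm38, 83525778 to 83530518, minus strand).

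Nkg7, a membrane protein of cytotoxic granules (chromosome 7, 43437073 to 43438249), was at 24.9, 23.3, 2.97 and 2.27 CPM in WT and at 1.81, 1.34, 23.7 and 2.56 CPM in Lepob/+. It was at 26.9, 36.1, 1.57 and 17.2 CPM in SOD1G93A and at 2.92, 2.50, 1.68 and 2.14 CPM in SOD1G93A-Lepob/+. The sets did not overlap, with a lowest rich library of 17.2 CPM and a highest poor library of 2.97 CPM. Prf1, which encodes perforin (chromosome 10, 61297833 to 61304680), ran from 7.18 to 15.2 CPM in the rich libraries and from 0.684 to 1.60 CPM in the poor ones. Klrd1, or CD94, the partner chain of NKG2 receptors (chromosome 6, 129591782 to 129598775), ran from 8.76 to 17.1 CPM in the rich libraries and from 0.233 to 2.17 CPM in the poor ones. Its lowest value, in Lepob/+ replicate 4, rested on 7 counts.

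Eomes and Tbx21 encode the T-box factors Eomesodermin and T-bet, which direct the development of NK cells and of cytotoxic T cells. Eomes (chromosome 9, 118478212 to 118486132) was at 6.09, 3.80, 0.465 and 0.502 CPM in WT, at 0.362, 0.367, 8.11 and 0.300 CPM in Lepob/+, at 6.25, 11.9, 0.259 and 3.14 CPM in SOD1G93A and at 0.310, 0.400, 0.227 and 0.281 CPM in SOD1G93A-Lepob/+. Its sets were far apart, but 9 to 19 counts stood behind each poor library. Eomes overlaps Gm33460 on the other strand, and since the strand setting of the counting was not given in the sources used here, reads of the pair cannot be told apart. Tbx21 (chromosome 11, 97098071 to 97115331, minus strand) was closer in the 2 sets, from 3.07 to 8.24 CPM in the rich and from 1.05 to 2.12 CPM in the poor libraries.

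Gzma and Gzmb, the granzymes, and the activating receptors Klrk1 and Ncr1 did not follow the lymph node in the same way. Gzma (chromosome 13, 113093825 to 113100981, minus strand) was at 2.29, 2.71, 2.04 and 3.36 CPM in WT, at 1.77, 1.20, 1.94 and 2.50 CPM in Lepob/+, at 3.67, 7.07, 1.88 and 2.03 CPM in SOD1G93A and at 2.39, 2.05, 2.72 and 1.97 CPM in SOD1G93A-Lepob/+. The rich Lepob/+ replicate 3 lay within the range of the poor libraries of its genotype. Gzmb (chromosome 14, 56258838 to 56262260, minus strand) ran from 0.623 to 4.00 CPM in the rich and from 0.415 to 1.78 CPM in the poor libraries, so that the sets overlapped. Klrk1, or NKG2D, the receptor for stress ligands (chromosome 6, 129610323 to 129623864, minus strand), also overlapped, with 4.97 to 10.4 CPM against 2.23 to 7.01 CPM. For Ncr1 (chromosome 7, 4337724 to 4345164) the sets only just parted, since the lowest rich library was at 1.108 CPM and the highest poor library at 1.106 CPM.

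**Figure D1:**
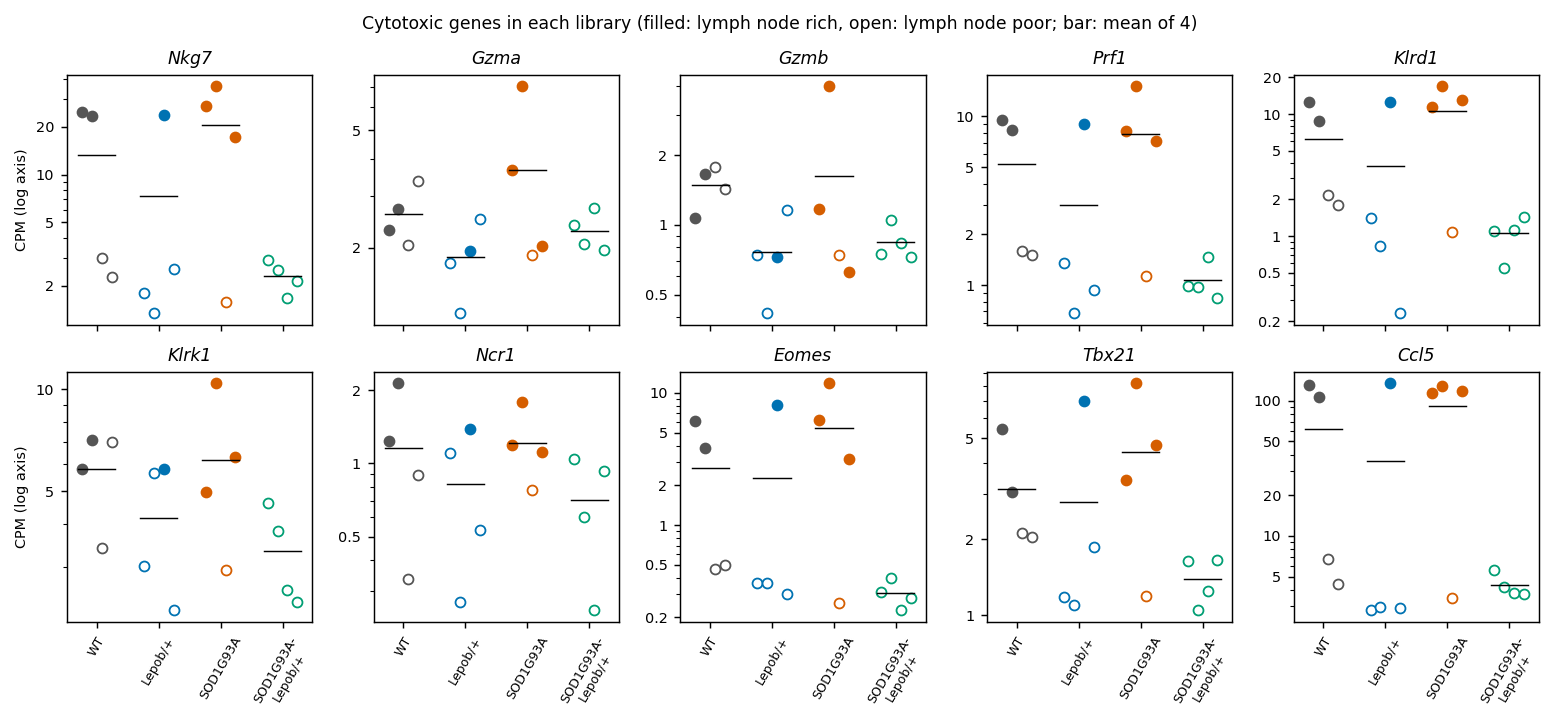
CPM (vertical log axis, a scale for each gene) of the 10 members in the 16 libraries by genotype, with filled points for the 6 lymph node rich libraries, open points for the 10 poor libraries and a bar for the mean of 4. Filled and open points lie far apart for Ccl5, Nkg7, Prf1, Klrd1 and Eomes, and mix for Gzma, Gzmb and Klrk1.

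By the ratio of medians, rich over poor, Ccl5 was 32.8 times, Eomes 18.4 times, Klrd1 11.3 times, Nkg7 11.0 times, Prf1 8.12 times and Tbx21 3.51 times higher. The ratio was 1.91 for Ncr1, 1.89 for Klrk1, 1.41 for Gzmb and 1.22 for Gzma. Every rich library was above every poor library for 7 of the 10 members, and for 11.2% of the 19736 genes tested. No p-value is given here, since the libraries were split by their own RNA. The genes of the T cell receptor complex had 16 of 16 above and a median ratio of 73.9, and the B cell genes 10 of 10 and a median of 146. In the T cell list, 3 genes had a lower ratio than Ccl5, namely Cd4 at 27.8, Trdc at 9.08 and Cd28 at 8.89. The median over the members was 5.81, and over all genes tested 0.976. Macrophage genes went the other way, with a median of 0.588 and 0 of 12 above. Adgre1 was at 46.8 CPM in rich and 88.7 CPM in poor libraries, and Mcpt4 at 28.5 and 40.9 CPM.

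Further lists of genes used by NK cells, not all of them particular to these cells, were split in part. Among 21 other NK receptors, 11 did not overlap (median ratio 2.96). Of those with a median above 0 in the poor libraries, Cd96, which recognises the poliovirus receptor, led at 73.8 times and Cd160 followed at 20.4 times. Tigit had no finite ratio, with a median of 1.67 CPM in the rich and 0 in the poor libraries. Of the 12 receptors of the lectin family in that list, 6 did not overlap and 6 did, with ratios from 1.49 to 7.66 (median 2.55), a tally made after the values were seen. Klrb1c, a receptor by which NK cells of this strain are recognised, was at 2.60 against 1.24 CPM. These families hold close copies, and reads that map to more than 1 place were not counted. Of 15 other granule and killing genes tested, 11 did not overlap (median 2.56), with Ctsw, a cathepsin of killer cells, at 19.0 times and Unc13d, which primes granules for release, at 7.02 times. Of 12 signalling adaptors, 7 did not overlap (median 6.97), and these included Lck at 50.8 times and Hcst, the adaptor of NKG2D, at 9.90 times. Tyrobp and Fcer1g, adaptors that macrophages and mast cells also use, had ratios of 0.912 and 0.730. For transcription factors 5 of 12 parted (median 2.28), for cytokines, chemokines and their receptors 8 of 17 (median 2.46), and for ligands of NKG2D 1 of 3 (median 1.83).

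**Figure D2:**
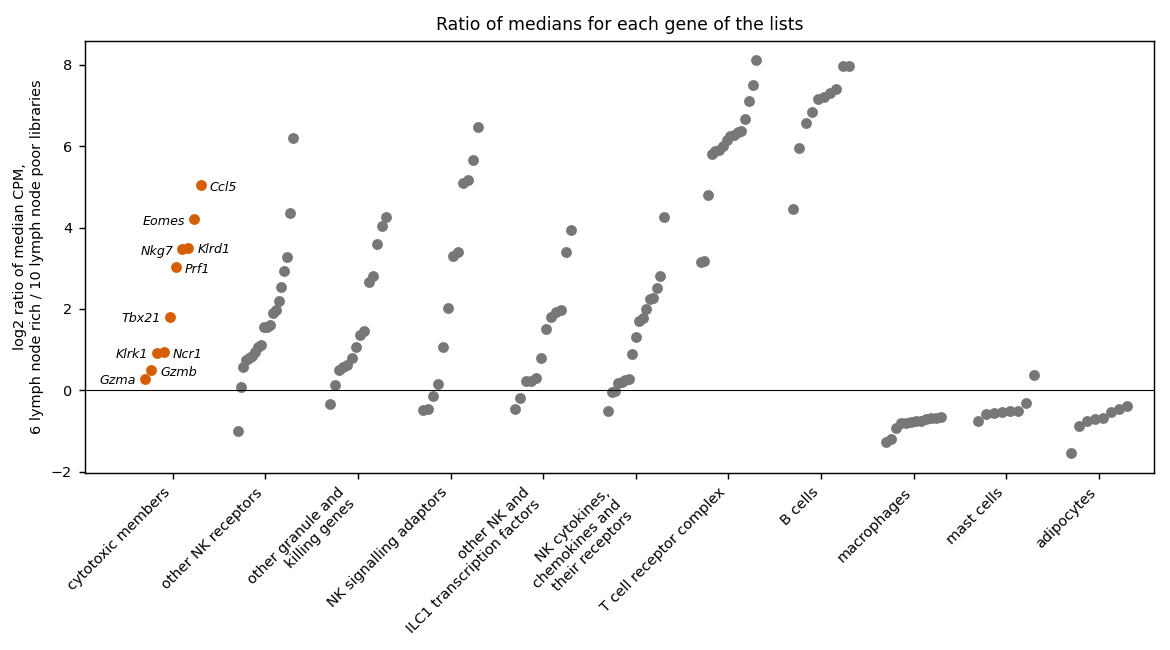
Log2 ratio of the median CPM in 6 lymph node rich libraries to that in 10 poor libraries (vertical axis) for each gene of 11 lists with a median above 0 in the poor libraries, members in orange with their names. Members run from Gzma at 1.22 times (near the line of 0) to Ccl5 at 32.8 times, below most T cell and B cell genes, while the macrophage, mast cell and adipocyte genes lie below the line but for 1 mast cell gene.

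What remained in the poor libraries was low but above 0 for every member in every library, with the lowest value at 7 counts. Levels of different genes were compared per kilobase (kb) of exon. Ccl5 had a median of 3.90 CPM per kb (2.93 to 7.05 over 10 libraries), Nkg7 2.41 (1.47 to 3.25) and Gzma 2.03 (1.19 to 3.34). Then came Klrd1 at 0.866, Tbx21 at 0.580, Gzmb at 0.554, Klrk1 at 0.447, Ncr1 at 0.447, Prf1 at 0.413 and Eomes at 0.0809 CPM per kb. Nkg7 and Gzma overlapped nearly whole, the 6 genes from Klrd1 to Prf1 overlapped each other, and Eomes lay below the range of all others. In the rich libraries the order was different. Ccl5 at 128 CPM per kb and Nkg7 at 26.6 led without overlap, and Klrd1 at 9.78 met only the highest value of Gzma. They were followed by Prf1 at 3.36, Gzma at 2.48, Tbx21 at 2.03, Eomes at 1.48, Ncr1 at 0.851, Klrk1 at 0.845 and Gzmb at 0.782, whose ranges overlapped from each to the next.

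Cd3e, a single gene of the T cell receptor complex, was used to set the members against T cell RNA of the same library. Gzma was 0.0269 to 0.0722 times Cd3e in CPM in the rich libraries and 1.46 to 3.64 times in the poor ones. Ncr1 was 0.0179 to 0.0437 times and 0.333 to 1.18 times Cd3e, and Nkg7 0.320 to 0.475 times and 1.18 to 3.59 times. Ccl5, whose median ratio to Cd3e moved least among the members, was 1.31 to 2.19 times and 2.29 to 8.19 times. The ranges did not overlap for these 4 genes, while those of Klrd1 did (0.174 to 0.242 times and 0.241 to 2.63 times). The share over all genes is not given here. Cd3e itself was between 0.489 and 1.93 CPM in the poor libraries, on 20 to 73 counts. Its ratio of medians, rich over poor, was 71.4 and above that of every member. Higher values relative to Cd3e in the poor libraries follow from this and are not a separate result.

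**Figure D3:**
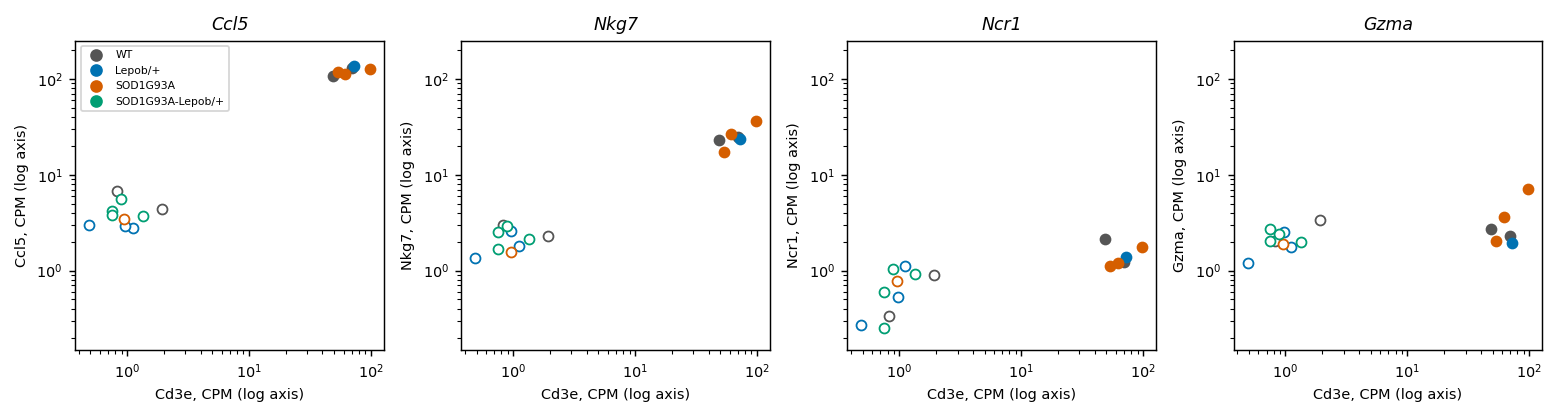
CPM of Ccl5, Nkg7, Ncr1 and Gzma (vertical log axes) against CPM of Cd3e (horizontal log axis) in 16 libraries, coloured by genotype, filled for lymph node rich and open for poor. The clouds of rich and poor libraries differ most in height for Ccl5 and least for Gzma, whose poor libraries reach 3.36 CPM.

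SOD1G93A against WT asked for the effect of the transgene. All 10 members had higher means in SOD1G93A, with a median log2 fold change of 0.52 against 0.02 over all genes, but none passed the test (edgeR adjusted p = 0.998 or above), nor an unadjusted p under 0.05, which 2.56% of the genes tested did and 0% at the adjusted threshold. Ccl5 was at 90.8 against 62.0 CPM on average (log2 fold change 0.55, SE 1.34), and Prf1 at 7.91 against 5.23 CPM (0.59, SE 0.87). Lymph node rich were 3 of 4 SOD1G93A libraries and 2 of 4 WT libraries. SOD1G93A replicate 2 was the highest of the 16 libraries for 8 of the members, and without it the median was 0.01 and 1 member, Gzmb, passed the unadjusted p, as lower in SOD1G93A (-0.82), beside 1.08% of genes. With the mean of the lymph node list as a covariate the direction turned: the median was -0.11, with 7 members below 0 and 3 above, from -0.25 for Ccl5 to 0.38 for Gzma, and none passed the unadjusted p.

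Lepob/+ against WT asked for the effect of the ob allele alone. The 10 members had lower means in Lepob/+ (median log2 fold change -0.61, all genes 0.03), and none passed the adjusted threshold (edgeR adjusted p = 0.9997 for each) or an unadjusted p under 0.05, which 4.37% of the genes did and 0% when adjusted. Lepob/+ replicate 3 was the only rich library of its genotype. Without it, 6 members passed the unadjusted p beside 11.4% of genes, 0 the adjusted one, and the median was -1.81. That fit set only poor Lepob/+ libraries against WT libraries of which 2 were poor and the others rich. The ob allele and the lymph node split cannot be told apart in it. In voom with quality weights, which weighs each library by its spread, 6 members passed the unadjusted p beside 6.2% of genes, 0 the adjusted one, and the median was -1.68. Without Lepob/+ replicate 4 (1.7% of genes), or without SOD1G93A replicate 2 (3.87%), 1 member passed the unadjusted p. With the mean of the lymph node list as a covariate, all 10 members stayed below 0, from -0.92 to -0.14. Ccl5 (-0.71, SE 0.24) and Klrd1 (-0.86, SE 0.39) then passed the unadjusted p, beside 4.13% of genes, and no member the adjusted one.

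The comparison of SOD1G93A-Lepob/+ with SOD1G93A set 4 poor libraries against 3 rich and 1 poor, and of the comparisons made it gave the members' median farthest from 0. All 10 had lower means in SOD1G93A-Lepob/+, with a median log2 fold change of -2.26 (all genes 0.00). None passed the adjusted threshold in edgeR, and neither did any other gene (0%). At an unadjusted p under 0.05, 7 members were lower and 0 higher, where 16.5% of all genes passed in either direction and 12.3% as lower.

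Among the chemokine and granule genes, Ccl5 averaged 4.31 ± 0.869 CPM with both mutations and 90.8 ± 58.5 CPM with the transgene alone (SD, n = 4 each), a log2 fold change of -4.40 (SE 1.55, edgeR adjusted p = 0.261). Nkg7 averaged 2.31 ± 0.529 against 20.4 ± 14.7 CPM (-3.14, SE 1.11, edgeR adjusted p = 0.261). Prf1 averaged 1.07 ± 0.277 against 7.91 ± 5.74 CPM (-2.88, SE 0.94, edgeR adjusted p = 0.261). The granzymes were nearer to each other, with Gzma at 2.28 ± 0.346 against 3.66 ± 2.41 CPM (-0.68, SE 0.37) and Gzmb at 0.843 against 1.63 CPM (-0.95, SE 0.51), and neither passed the unadjusted p. SOD1G93A replicate 3, the poor library, lay below or within the SOD1G93A-Lepob/+ range for all 5 genes.

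Among receptors and factors, Klrd1 averaged 1.05 ± 0.367 against 10.7 ± 6.80 CPM (-3.34, SE 1.12), Klrk1 3.34 against 6.17 CPM (-0.88, SE 0.41) and Ncr1 0.704 against 1.22 CPM (-0.79, SE 0.59). Ncr1 did not pass the unadjusted p. Eomes averaged 0.304 against 5.39 CPM (-4.13, SE 1.35) and Tbx21 1.40 against 4.39 CPM (-1.65, SE 0.64). By the tool of the study, DESeq2, fitted on the compared genotypes, 6 members passed an adjusted p of 0.05 (Ccl5, Eomes, Klrd1, Nkg7, Prf1 and Tbx21) beside 7.95% of genes, and fitted on all libraries 5 (without Tbx21) beside 2.85%. In voom the same 6 passed beside 31.5%.

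The further lists differed in direction. Counted as lower are here the genes at an unadjusted p under 0.05, and the value in parentheses after a count is the list's median on the log2 scale. T cell receptor genes were lower in 16 of 16 (-5.95) and B cell genes in 10 of 10 (-6.81), with 0 of either past the adjusted threshold. Of 21 other NK receptors 9 were lower (-1.43), led by Cd96 (-6.41, SE 2.01), Slamf7 (-1.78, SE 0.61), Cd160 (-4.72, SE 1.71) and Il2rb (-2.99, SE 1.09), the last a chain of the receptors for interleukins that NK cells need. For granule and killing genes 6 of 15 were lower (-1.29), with Lyst (-0.79, SE 0.25), Ctsw (-3.90, SE 1.36), Unc13d (-2.50, SE 0.91) and Serpinb6b (-3.15, SE 1.16). Adaptors were lower in 7 of 12 (-2.46), transcription factors lower in 4 and higher in 1 of 12 (-0.95), cytokines, chemokines and their receptors lower in 8 of 17 (-0.82), and NKG2D ligands in 0 of 3 (-0.68). The log2 fold change was -3.01 for Hcst, -5.49 for Lck, -3.74 for Runx3, -3.21 for Tox, -3.29 for Il12rb1 and -4.04 for Cxcr6, none past the adjusted threshold. Macrophage genes had higher means in 12 of 12 (0.56), mast cell genes in 8 of 8 (0.43) and adipocyte genes in 8 of 8 (0.43), of which 1 adipocyte gene passed the unadjusted p.

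With the mean of the lymph node list as a covariate, the median of the members in this comparison was -0.38 and 0 members had an unadjusted p under 0.05. Ccl5 then had a log2 fold change of -0.20 (SE 0.28), Nkg7 of -0.17 (SE 0.34), Klrd1 of -0.55 (SE 0.46), Eomes of -0.61 (SE 0.43) and Ncr1 of 0.05 (SE 0.53). Gzmb had the lowest value, -0.73 (SE 0.64). The covariate and the genotype overlap, because no SOD1G93A-Lepob/+ library was rich.

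**Figure D4:**
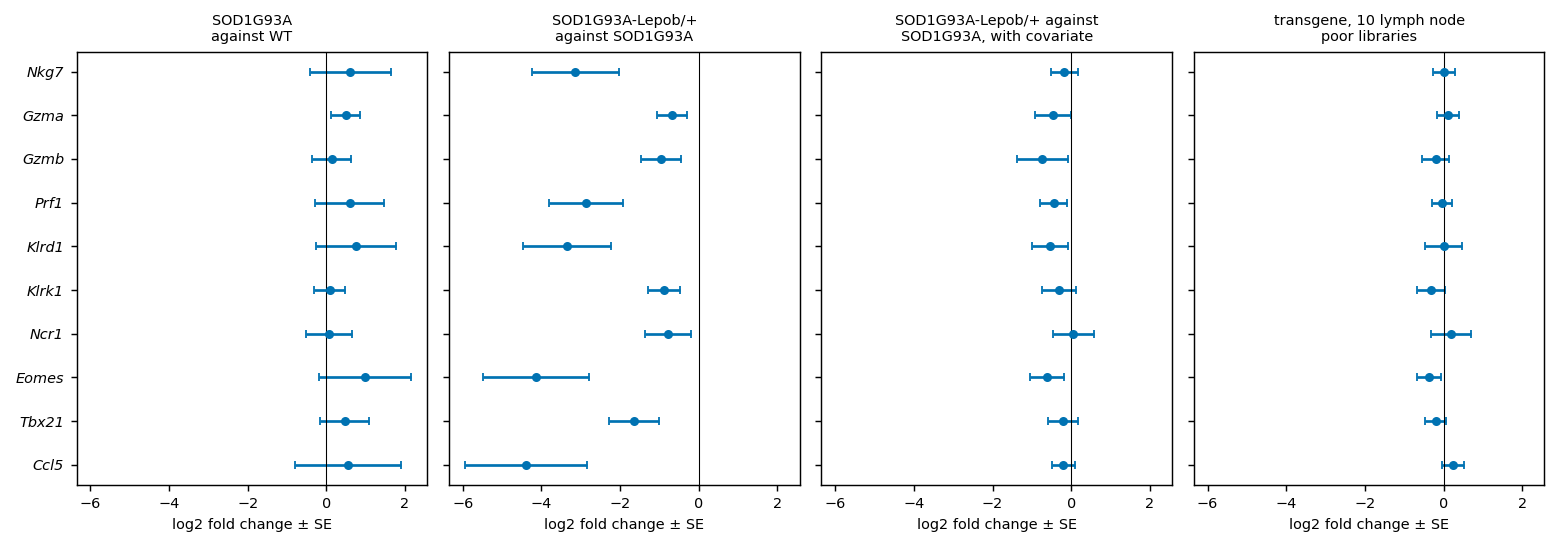
Log2 fold change (horizontal axis, bars for ± SE) of each member in SOD1G93A against WT, in SOD1G93A-Lepob/+ against SOD1G93A, in the same comparison with the lymph node list as a covariate, and for the transgene in the 10 lymph node poor libraries. The second panel reaches -4.40 for Ccl5, while the members lie between -0.73 and 0.05 with the covariate and between -0.38 and 0.24 in the poor libraries.

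In SOD1G93A-Lepob/+ against WT, all 10 members again had lower means (median -1.73, all genes 0.01). None passed the adjusted threshold in edgeR (0% of genes), and 5 passed the unadjusted p, all lower, beside 4.74% of genes in either direction and 3.52% as lower. They were Ccl5 (-3.84, SE 1.51), Eomes (-3.15, SE 1.30), Klrd1 (-2.58, SE 1.08), Nkg7 (-2.53, SE 1.08) and Prf1 (-2.28, SE 0.92), and DESeq2 on the compared genotypes called these 5 at an adjusted p of 0.05 beside 1.6% of genes. DESeq2 on all libraries and voom called 0 at that threshold. With the lymph node covariate the median was -0.47 and 0 members passed the unadjusted p. That count also fell to 0 without WT replicate 1, to 1 without WT replicate 2 or without SOD1G93A-Lepob/+ replicate 3 or 4, and to 2 without SOD1G93A-Lepob/+ replicate 1 or 2, where 2.18% to 3.74% of genes passed. Against Lepob/+, SOD1G93A-Lepob/+ had a median of -1.24, and only Eomes passed the unadjusted p (-2.90, SE 1.29, edgeR adjusted p = 0.602), beside 8.24% of genes and 6.28% as lower, with 0% adjusted. Without Lepob/+ replicate 3 it did not pass and the median was 0.14, and in voom it did not pass and the median was 0.12. It did not pass either without any one of the SOD1G93A-Lepob/+ libraries, while 3 members passed without Lepob/+ replicate 4 (6.15% of genes), and 2 without Lepob/+ replicate 1 or 2, WT replicate 4 or SOD1G93A replicate 3 (7.93% to 12.3%).

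The interaction asked whether the ob allele acted differently with the transgene than without it. Its median over the members was -1.77, and Eomes alone passed the unadjusted p (-3.88, SE 1.74, edgeR adjusted p = 0.564), beside 7.98% of genes, with 0% adjusted. Without Lepob/+ replicate 3 the median was -0.24, in voom -0.39 and with the lymph node covariate 0.14, and no member passed the unadjusted p in voom or with the covariate. The count was 2 without Lepob/+ replicate 4 (7.97% of genes), and 0 without WT replicate 2, 3 or 4, Lepob/+ replicate 3, SOD1G93A replicate 1 or 2, or any one SOD1G93A-Lepob/+ library. These comparisons share the WT, Lepob/+, SOD1G93A and SOD1G93A-Lepob/+ libraries among them and are not independent.

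Within the 10 poor libraries, the transgene (5 libraries with it, 5 without, adjusted for the ob allele) left no member past the adjusted or the unadjusted threshold in edgeR, beside 5.35% of 20632 genes at the unadjusted p and 0% adjusted. The median log2 fold change was -0.02, with 5 members higher and 5 lower. WT replicate 3 and Lepob/+ replicate 4, with the most muscle transcripts, were both without the transgene. In this fit 10 of 10 skeletal muscle genes were lower with the transgene at the unadjusted p (median -8.22). Nkg7 changed by 0.01 with a 95% interval from -0.64 to 0.66, Prf1 by -0.04 (-0.63 to 0.55), Gzma by 0.10 (-0.53 to 0.73) and Ccl5 by 0.24 (-0.37 to 0.85). The lowest bound of any member was -1.12 (Klrk1) and the highest 1.33 (Ncr1), and each interval bounds its own gene alone.

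For the ob allele (7 libraries with it, 3 without, adjusted for the transgene), all 10 members had log2 fold changes below 0. Their median was -0.28 against 0.04 over all genes. Ncr1 was nearest to 0 (-0.04), and its mean was not lower, at 0.675 CPM with the allele and 0.671 CPM without. None passed the adjusted threshold in edgeR (0% of genes) or the unadjusted p, which 4.59% of genes did. The lowest values were those of Klrd1 (-0.82, interval -1.99 to 0.34), Gzmb (-0.62, -1.46 to 0.22), Ccl5 (-0.51, -1.16 to 0.14) and Prf1 (-0.44, -1.07 to 0.19). SOD1G93A replicate 3 was the single poor library of its genotype. Without it the median was -0.60 and 2 members, Gzmb and Ccl5, passed the unadjusted p beside 3.99% of genes, while for the transgene 1 member, Ccl5, did (0.57) beside 6.37%.

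The 2 poor WT libraries held the highest values of several members. Klrd1 was at 2.17 and 1.80 CPM in them and at most 1.43 CPM in the other 8 poor libraries, Gzmb at 1.78 and 1.43 CPM against at most 1.17 CPM, and Eomes at 0.465 and 0.502 CPM against at most 0.400 CPM. With Prf1 and Tbx21, 5 of the 10 members had both WT libraries above the other 8, beside 1.19% of 18527 genes with at least 100 counts over these libraries. The pattern was chosen after the values were seen and rests on 2 libraries, of which WT replicate 3 also held muscle transcripts. It was also seen in 4 of 16 T cell receptor genes, 2 of 12 transcription factors and 1 of 18 cytokines, chemokines and receptors, and in 0 of 21 other NK receptors, 0 of 16 other granule genes and 0 of 12 adaptors. The mean log2 CPM over the T cell receptor list was 0.29 and 1.14 in these WT libraries and -0.54 to 0.28 in the others, and the part of T cell content in the members' values was not tested.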

How the data were processed

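RNA from iWAT of 16 mice, 4 per genotype, was sequenced by the authors as read pairs of mRNA libraries. Per the labels and the methods of the study, reads under a Phred score of 30 were trimmed with fastp, aligned to mm10 with HISAT2 2.1.0 and counted per gene with featureCounts 2.0.2, uniquely mapped reads only. The labels and the methods name different library kits, and the strand setting and annotation release were not given in the sources used here. The values the authors deposited are raw counts for 54752 Ensembl IDs, of which 54723 were paired with a symbol in GENCODE M21 (GRCm38), which also gave positions and exon lengths.

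Counts were tested with edgeR 4.0.16 in R 4.3.3 by the robust quasi-likelihood F test with TMM scaling, in 1 fit of 16 libraries with 4 genotype means and 12 residual degrees of freedom. Genes were kept by filterByExpr (min.count 10, min.total.count 15), and p-values were adjusted by Benjamini-Hochberg over all genes tested, at 0.05. Standard errors were taken from the fold change and its F. DESeq2 1.42.0 and voom of limma 3.58.1 were alternatives, with other filters and scalings, a lymph node covariate, a replicate block and each library left out in turn. A library was called lymph node poor where the mean log2 CPM (prior count 1) of 7 lymph node genes was below 1, and the poor libraries were fitted with both mutations as additive terms. Of the fits, only the edgeR test of SOD1G93A-Lepob/+ against SOD1G93A was tried on simulated counts. Those counts held no split by lymph node genes within a genotype.

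At 36.8 to 61.9 M counts per library, 7 to 265 counts stood behind each member in a poor library. The labels number the replicates, and no source used here ties a number to a litter or batch. No 2 libraries of a genotype were alike within sampling noise (chi-square per degree of freedom of 46.4 or more). P-values weigh a difference against the spread between these samples, which includes the split by lymph node genes. Members and lists were chosen with earlier results of these data known. Named genes are all members, the up to 4 genes of each further list that had the lowest p-values of the comparison, and Cd3e, Glycam1, Adgre1 and Mcpt4. Klrb1c, Tigit, Tyrobp, Fcer1g, Cd4, Trdc, Cd28, Acta1 and Xist were named beside this rule, after their values were seen. Of the 16 lists with 179 genes, those of neutrophils and plasmacytoid dendritic cells gave 2 higher and 1 lower of 6 and 0 higher and 3 lower of 7 genes at an unadjusted p under 0.05 between SOD1G93A-Lepob/+ and SOD1G93A, mast cells 0 of 8, skeletal muscle 0 of 10 and adipocytes 1 higher of 8. Promoters were those of RefSeq (GRCm38.p6).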

Additional observations from a re-analysis of the deposited data

Results flagged for a closer look

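In 4 of 40 groups formed by a member and a genotype, 1 library lay far from the other 3 of its genotype by Dixon's test on the log2 CPM. Chance alone flags about 5% of groups, but these groups share libraries and are not independent, so the count cannot be weighed against that share. The share of all genes flagged in this way is not given here. Ccl5 was at 135.676 CPM in Lepob/+ replicate 3 and between 2.82 and 2.98 CPM in the other Lepob/+ libraries. Eomes was at 8.11241 CPM in the same library and between 0.300 and 0.367 CPM in the others. In SOD1G93A, Ccl5 was at 3.48743 CPM in replicate 3 and between 114 and 128 CPM in the other libraries, and Klrd1 was at 1.08766 CPM in replicate 3 and between 11.5 and 17.1 CPM in the others. Lepob/+ replicate 3 was the single lymph node rich library of its genotype and SOD1G93A replicate 3 the single poor one. The parts of the lymph node in these values were not tested apart from the fit with the covariate.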

How the results depend on the processing

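No member passed an adjusted p of 0.05 in edgeR in any of the 8 comparisons, under either filter, scaling or library set tried. Other tools called members in SOD1G93A-Lepob/+ against SOD1G93A, where voom with quality weights called 6, DESeq2 on all libraries 5 and DESeq2 on the compared genotypes 6, and in SOD1G93A-Lepob/+ against WT, where DESeq2 on the compared genotypes called 5; no other tool and comparison called a member. Leaving out each library in turn gave 0 members called in every comparison. Members at an unadjusted p under 0.05 ranged from 5 to 9 in SOD1G93A-Lepob/+ against SOD1G93A and from 0 to 7 in SOD1G93A-Lepob/+ against WT. Of all genes tested, 7.36% to 28.0% passed in the former fits and 2.18% to 7.23% in the latter. With the replicate number as a block, 0 members were called in each of the 6 comparisons of all libraries, and the poor libraries were not fitted with it. The count at the unadjusted p was 6 in SOD1G93A-Lepob/+ against SOD1G93A (7 without the block) and 0 in SOD1G93A-Lepob/+ against WT (5 without it), and 0 in SOD1G93A-Lepob/+ against Lepob/+ and in the interaction (1 without it in each). With the block, 13.6%, 2.71%, 3.85% and 4.91% of genes passed in these comparisons, in the same order. The deviations gave no sign that the numbers pair the libraries. Of 24 pairs with the same number, 5 deviated together (correlation over 0.1) and 8 apart (under -0.1), and 1 of 16 libraries was closest to its own number. The lowest value was between the rich Lepob/+ replicate 3 and the poor SOD1G93A replicate 3 (-0.69). The highest was between the poor WT replicate 3 and SOD1G93A replicate 3 (0.52). A shared litter or batch was not tested apart from the lymph node split. With the lymph node covariate, the median log2 fold change of the members was -0.38 in SOD1G93A-Lepob/+ against SOD1G93A, -0.47 against WT and 0.12 against Lepob/+. It was -0.11 in SOD1G93A against WT and 0.14 for the interaction, and 0 members passed the unadjusted p in any of these. In Lepob/+ against WT it was -0.42 and 2 members passed, beside 4.13% of genes. Voom moved the median to -1.68 in Lepob/+ against WT, 0.12 in SOD1G93A-Lepob/+ against Lepob/+ and -0.39 for the interaction. Leaving out both the library with muscle transcripts and the one that went against its sex label, chosen after seeing the data, left 5 and 3 members at the unadjusted p against SOD1G93A and WT, and the poor library medians at -0.05 for the transgene and -0.42 for the ob allele. Counting limits are widest for Eomes and Klrd1 in the poor libraries, at 9 and 7 counts in the lowest.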
